A study of Mus musculus with 6 samples.

Results

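Long intergenic non-coding RNAs (lincRNAs) are transcripts of genes that lie between protein-coding genes and hold no long open reading frame. The 243 lincRNA genes described here were selected from the count table of 55335 genes as the rows that GENCODE release M21 classes as lincRNA and that held at least 120 counts in total over 6 RNA-seq libraries, with the snoRNA host genes Gas5, Zfas1 and the Snhg genes left out. They are 243 of 5621 lincRNA rows, of which 1585 had any count. The total count chose the members, so a lincRNA of either group could enter through 1 group alone, and the levels of the members are given as a description.

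The RNA came from bone marrow-derived macrophages (BMDMs) of C57BL/6 mice, with 3 Control libraries of cells given PBS and 3 LPS libraries of cells given lipopolysaccharide, the outer membrane glycolipid of Gram-negative bacteria that macrophages sense through TLR4. Both groups were collected after 1 h. The labels give the genotype as C57BL/6 for every library, with no transgene or deletion, and the study's methods state male mice aged 7 to 10 weeks. Marrow cells had been grown for 6 d with 20% L929-conditioned medium, a source of the growth factor M-CSF. The LPS dose was not given in the labels.

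Most lincRNAs are transcribed by RNA polymerase II, capped and often spliced, and many stay in the nucleus or turn over quickly. Some act where they are made on neighbouring genes, some serve as precursors of microRNAs, and some act as scaffolds, such as Neat1, the RNA core of nuclear paraspeckles. In macrophages, inflammatory stimuli switch on a set of lincRNAs together with cytokine genes, among them the precursor of miR-155 and the lincRNA beside the prostaglandin synthase gene Ptgs2.

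Library totals ranged from 37787611 to 41516330 counts, so a floor of 3 counts corresponded to 0.0630 to 0.0919 CPM (counts scaled to a common library size with TMM factors). Tnf, a cytokine gene that LPS induces, held 1007, 935 and 872 counts in Control against 78981, 75054 and 76710 in LPS. All 7 macrophage markers were tested, and their summed level was 29530 to 30810 CPM in Control and 32270 to 32620 CPM in LPS. The 4 T cell markers summed to at most 0.575 CPM in any library. The 5 neutrophil markers summed to 33.2 to 35.1 CPM in Control and 43.3 to 45.3 CPM in LPS, with Ly6g at or under 3 counts throughout, the 4 B cell markers to 2.61 to 2.92 CPM and 2.61 to 3.40 CPM, and the 4 fibroblast markers to 11.3 to 12.2 CPM and 13.1 to 14.3 CPM. The part of these other cells in the lincRNA values was not tested. In bulk RNA, fewer cells of a type and less RNA per cell cannot be told apart. Nothing in the labels says that replicates came from separate mice, so p-values measure the spread between these libraries.

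Of the 243 lincRNA genes, 46 were higher and 61 were lower in LPS by edgeR (adjusted p under 0.05 with a change of more than 1 on the log2 scale in either direction), and 136 were not called. These are 18.9% and 25.1% of the members. Over all 15687 tested genes, the same criteria called 10.5% higher and 10.4% lower, and over the 12146 tested protein-coding genes 9.09% and 7.4%. The median log2 fold change of the members was -0.39, with quartiles of -1.01 and 0.40, beside a median of -0.01 for all tested genes. The members ranged from -3.69 for E130102H24Rik to 11.10 for Mir155hg. The split of higher and lower calls moved with the scaling, because scaling by library size alone shifted the median of all tested genes to -0.42. Under that scaling 26.3% of the members' calls were higher in LPS, beside 43% with TMM.

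The minimum of 120 counts by itself let in genes whose raw counts had to differ between the groups, which fixed the direction of those counts but not the call. Of the members, 20 held under 60 counts over the Control libraries, and all 20 were called higher. Among the 54 members with under 60 counts over the LPS libraries, 32 were called lower and 22 were not called. A cut at 60 counts in each group therefore also drops members that were not called. The 169 members with 60 counts or more in each group gave 26 higher and 29 lower, or 15.4% and 17.2%. The 223 members with 60 counts or more in Control, whatever their LPS counts, gave 26 higher and 61 lower, or 11.7% and 27.4%. That cut drops only members called higher. Over all tested genes 10.5% were called higher and 10.4% lower. The precision followed the depth, with a median standard error of the log2 fold change of 0.27 for the 77 members under 240 counts in total, 0.17 for the 99 members with 240 counts or more but under 1000, and 0.09 for the 67 members with 1000 counts or more. Overlap with other annotation changed the shares little: 34 of the 180 members that share no exonic base with another gene rose and 44 fell, and of the 63 that share exonic bases 12 rose and 17 fell.

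**Figure D1:**
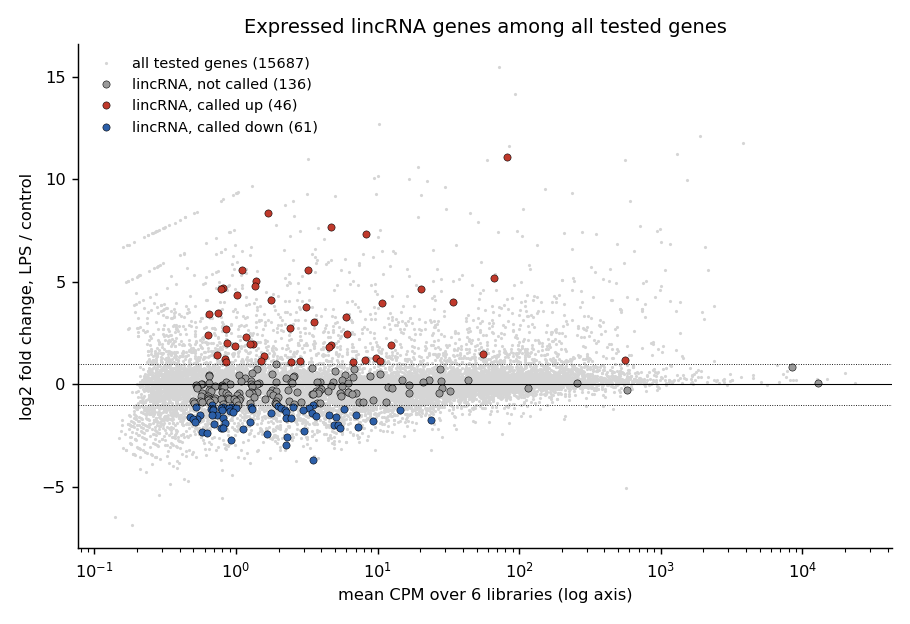
The log2 fold change of LPS against Control (vertical) is plotted against the mean CPM over 6 libraries (horizontal, log axis) for all 15687 tested genes (pale grey) and the 243 lincRNA genes, coloured by call, with dotted lines at -1 and 1. The 46 called-up lincRNAs reach 11.10, whereas the 61 called-down lincRNAs end at -3.69.

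Mir155hg (chr16:84703167-84715245, plus strand), the host gene of miR-155, a microRNA that promotes inflammatory signalling, had the largest rise. The 8 rises described first are the largest among called members with a mean of 50 counts or more per library. Coordinates here are those of GENCODE M21 on GRCm38. It held 1, 2 and 7 counts in Control against 5572, 5180 and 5766 in LPS. Every Control library held 7 counts or fewer and the LPS libraries were close to each other, so the fold rests on 10 Control counts: the scaled count ratio was 2277, with a 95% counting interval of 1238 to 4750. Its log2 fold change was 11.10 ± 0.11 (SE), with an edgeR adjusted p of 1.76e-22. The SE of an edgeR fold change was derived from the F test. Here it is much narrower than the counting interval and does not carry the error of the few Control counts. Without Control replicate 3, which held most of the Control counts, the log2 fold change of Mir155hg was 12.18. Per length it went from 0.0504 to 115 CPM per kb of exon, the fourth highest lincRNA level of the mean over both groups.

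Carlr (chr2:18799245-18801818, minus strand), a lincRNA described in NF-kappa B signalling, held 0, 1 and 0 counts in Control against 104, 118 and 113 in LPS. With 1 count over the Control libraries, the scaled count ratio of 453 had a counting interval of 80.8 to 17959, and without Control replicate 2, the library with that count, Control is at 0 and the fitted log2 value of 10.02 is no bound. AC124231.3 held 4, 2 and 0 counts in Control against 320, 304 and 310 in LPS, a scaled count ratio of 218 with an interval of 99.8 to 595, and its log2 fold change of 7.65 became 8.53 without Control replicate 1. The groups of both genes lay far apart, and their LPS libraries held over 100 counts each.

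Ptgs2os2 (chr1:150159043-150164948, minus strand, lincRNA-Cox2), which lies near Ptgs2 and is known as a regulator of inflammatory genes, held 5, 7 and 2 counts in Control against 585, 517 and 561 in LPS (log2 fold change 7.32 ± 0.17, edgeR adjusted p 4.29e-17). Gm34643 (chr14:103012908-103024457, plus strand), upstream of Acod1, the enzyme that makes itaconate, held 5, 6 and 7 counts in Control against 220, 190 and 225 in LPS (log2 fold change 5.58 ± 0.19). In both genes every LPS library held at least 190 counts and every Control library at most 7.

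AI504432 (chr3:107039504-107054347, plus strand), downstream of the potassium channel gene Kcna3, was well covered in both groups, with 155, 160 and 184 counts in Control against 4295, 3945 and 4669 in LPS. Its log2 fold change was 5.16 ± 0.07, with an edgeR adjusted p of 5.51e-21. Gm20186 (chr6:18845910-18848207, minus strand) held 86, 56 and 77 counts in Control against 1277, 1328 and 1322 in LPS (log2 fold change 4.63 ± 0.09), but shares 855 exonic bases with Gm26809, so reads there could be split between the genes. AC122252.2 (chr17:26467560-26503200, minus strand), downstream of the MAP kinase phosphatase gene Dusp1, held 8, 16 and 3 counts in Control against 107, 101 and 127 in LPS (log2 fold change 4.08 ± 0.28, and 4.79 without Control replicate 2). No Control library of these genes reached the lowest LPS library.

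**Figure D2:**
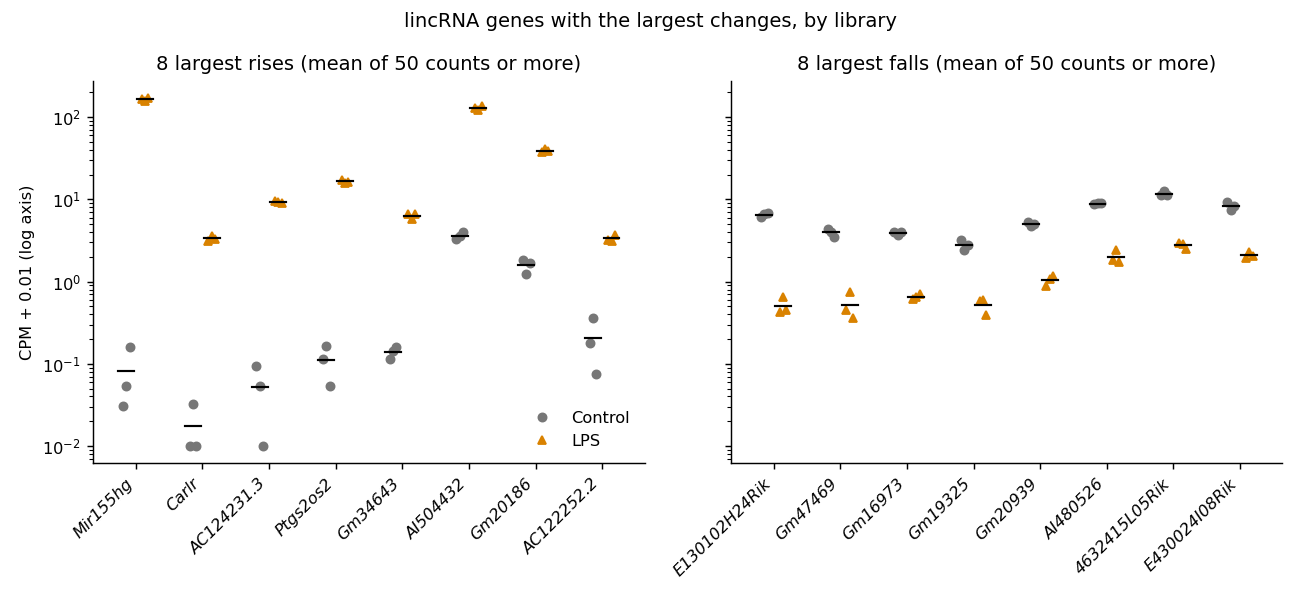
Points are single libraries (circles Control, triangles LPS) and bars are group means of CPM plus 0.01 on a log axis, for the 8 lincRNA genes with the largest rises (left) and the 8 with the largest falls (right) among called members that averaged 50 counts or more per library. The groups of each of the 16 genes do not overlap, and all rising genes but AI504432 start below the Control levels of the falling genes.

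Promoter windows of RefSeq (GRCm38.p6, 250 bases before to 50 after the start) were matched by symbol, chromosome and strand for 116 members, and 94 of them had a window within 1000 bases of the GENCODE start. The first 3 rising genes with such a window are shown to let the start regions of newly switched-on lincRNAs be read: Carlr at chr2:18801769-18802068 (minus strand), Ptgs2os2 at chr1:150164899-150165198 (minus strand) and Gm34643 at chr14:103012625-103012924 (plus strand). Capitals mark any match, on either strand, to a kappa B core (GGNNTTTCC), an AP-1 site (TGANTCA), a CRE (TGACGTCA), a PU.1 site (GAGGAAGT) or a TATA box (TATAAA), none of which contains another.
Carlr: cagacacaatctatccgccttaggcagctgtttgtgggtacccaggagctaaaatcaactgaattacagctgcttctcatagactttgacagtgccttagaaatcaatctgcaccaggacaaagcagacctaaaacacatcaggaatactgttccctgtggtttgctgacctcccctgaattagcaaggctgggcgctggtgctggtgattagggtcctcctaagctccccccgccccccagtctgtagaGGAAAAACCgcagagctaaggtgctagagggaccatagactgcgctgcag
Ptgs2os2: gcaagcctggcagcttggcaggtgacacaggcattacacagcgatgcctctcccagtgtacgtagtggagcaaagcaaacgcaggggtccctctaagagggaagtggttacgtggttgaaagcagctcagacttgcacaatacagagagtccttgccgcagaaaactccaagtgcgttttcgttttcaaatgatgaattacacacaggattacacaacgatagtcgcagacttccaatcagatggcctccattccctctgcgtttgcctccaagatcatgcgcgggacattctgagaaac
Gm34643: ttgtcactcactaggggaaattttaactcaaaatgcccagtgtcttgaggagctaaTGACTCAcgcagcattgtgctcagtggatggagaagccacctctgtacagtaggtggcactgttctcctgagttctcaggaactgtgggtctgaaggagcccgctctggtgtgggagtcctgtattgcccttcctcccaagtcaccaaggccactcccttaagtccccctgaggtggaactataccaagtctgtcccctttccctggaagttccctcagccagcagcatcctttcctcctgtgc
The Carlr window held 1 kappa B core at its start site, that of Gm34643 held 1 AP-1 match, and that of Ptgs2os2 held none of the motifs. These are matches of letters and no evidence of binding.

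The first 3 falling genes with a window are shown for the same reading: E130102H24Rik at chr4:101356199-101356498 (minus strand), Gm16973 at chr14:56700951-56701250 (minus strand) and Gm20939 at chr17:94864651-94864950 (plus strand).
E130102H24Rik: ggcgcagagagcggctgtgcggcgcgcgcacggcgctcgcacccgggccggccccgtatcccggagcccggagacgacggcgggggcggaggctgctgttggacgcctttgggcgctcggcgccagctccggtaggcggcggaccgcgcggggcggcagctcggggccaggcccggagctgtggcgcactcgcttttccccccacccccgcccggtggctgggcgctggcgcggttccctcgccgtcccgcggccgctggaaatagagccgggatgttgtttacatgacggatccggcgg
Gm16973: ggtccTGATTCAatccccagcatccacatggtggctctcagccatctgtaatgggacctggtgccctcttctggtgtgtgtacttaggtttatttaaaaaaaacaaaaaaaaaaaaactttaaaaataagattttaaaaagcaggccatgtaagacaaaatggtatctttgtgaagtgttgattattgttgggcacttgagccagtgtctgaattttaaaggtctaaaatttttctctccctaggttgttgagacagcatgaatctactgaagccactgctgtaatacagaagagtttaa
Gm20939: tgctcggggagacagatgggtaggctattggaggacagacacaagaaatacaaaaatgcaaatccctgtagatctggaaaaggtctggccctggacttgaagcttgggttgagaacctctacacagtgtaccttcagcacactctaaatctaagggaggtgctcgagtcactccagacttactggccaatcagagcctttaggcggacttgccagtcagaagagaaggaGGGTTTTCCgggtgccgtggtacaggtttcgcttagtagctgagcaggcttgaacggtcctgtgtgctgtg
The window of E130102H24Rik held 47 CpG dinucleotides, that of Gm20939 held 7 and that of Gm16973 held 0, beside a median of 7 over all 32851 promoter windows. Gm16973 held 1 AP-1 match and Gm20939 held 1 kappa B core. The RefSeq starts lay 487 bases downstream of the GENCODE start for E130102H24Rik and 268 bases downstream for Gm16973.

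Over all 32851 windows, 5.82% held the kappa B core, 7.81% AP-1, 1.79% CRE, 3.2% PU.1 and 13.6% the TATA box. Of the 14 windows of called-up members, 2 held the kappa B core and 3 the AP-1 motif, and none held a CRE or PU.1 match. Of the 32 windows of called-down members, 8 held the kappa B core, 4 the AP-1 motif and 1 the PU.1 motif. Among the 58 windows of members not called, 11 held PU.1 and 5 the kappa B core. The kappa B core was in 14.3% of the windows of rising and 25% of those of falling members, and the AP-1 motif in 21.4% and 12.5%, from few windows.

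The falls described next are the 8 largest among called members with a mean of 50 counts or more per library. E130102H24Rik (chr4:101346531-101356735, minus strand), which holds the hairpin of miR-101a, fell most, from 288, 298 and 316 counts in Control to 14, 21 and 15 in LPS (log2 fold change -3.69 ± 0.16, edgeR adjusted p 4.68e-13). Gm47469 (chr13:74553910-74564256, minus strand) fell from 210, 183 and 160 counts to 15, 24 and 12 (log2 fold change -2.96 ± 0.20). Gm16973 (chr14:56696280-56701268, minus strand), which overlaps Mphosph8 on the other strand over 384 exonic bases, fell from 193, 166 and 186 counts to 20, 21 and 24 (log2 fold change -2.59 ± 0.16). The highest LPS library of each lay far below its lowest Control library.

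Gm19325 (chr9:97047444-97067307, minus strand) fell from 151, 109 and 129 counts to 19, 19 and 13, and Gm20939 (chr17:94864918-94878321, plus strand) from 254, 214 and 231 to 29, 35 and 39, with log2 fold changes of -2.45 ± 0.20 and -2.29 ± 0.14. AI480526 (chr5:123133723-123141666, minus strand) fell from 414, 407 and 415 counts to 61, 79 and 59 (log2 fold change -2.16 ± 0.12), and shares 3147 exonic bases with other annotated genes. Its reads can therefore not be assigned to it with certainty. 4632415L05Rik (chr3:19894886-19898984, plus strand) fell from 538, 570 and 524 counts to 99, 92 and 84, and E430024I08Rik (chr13:74434781-74463429, minus strand) from 447, 339 and 384 counts to 65, 74 and 69, with log2 fold changes of -2.10 ± 0.10 and -2.02 ± 0.12. In all 8 genes the groups did not overlap, and every LPS library held reads of each.

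Of 45 lincRNA symbols set down in a list of studied genes, 20 were members, of which 5 rose, 2 fell and 13 were not called. Some genes stood in the list under another name as well, such as Gm14005 as Morrbid and 2900097C17Rik as Norad. The remaining symbols are therefore not all further genes. For comparison, 18.9% of all members were called higher and 25.1% lower, and 10.5% and 10.4% of all tested genes. The rises among the 20 were those of Mir155hg, Ptgs2os2, Gm14005, Mir17hg and Lncpint. Gm14005 (Morrbid), known for restraining the pro-apoptotic gene Bcl2l11 in short-lived myeloid cells, held 14, 15 and 31 counts in Control against 210, 176 and 199 in LPS (log2 fold change 3.75 ± 0.19). Lncpint, a p53-induced transcript, held 1407, 1368 and 1386 counts in Control against 2731, 2686 and 2771 in LPS (log2 fold change 1.45 ± 0.04). Its replicates were tight, so that a modest change stood clear of their spread.

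The falls were those of Ftx, a regulator in the X-inactivation centre, and Gm26779. Ftx held 370, 341 and 358 counts in Control against 75, 89 and 90 in LPS (log2 fold change -1.60 ± 0.10). Gm26779 held 75, 50 and 69 counts in Control against 14, 17 and 31 in LPS, a log2 fold change of -1.17 ± 0.26 that lost its call without LPS replicate 1 (-0.95). Jpx, another non-coding gene of the X-inactivation centre, had 113, 87 and 101 counts in Control against 48, 48 and 52 in LPS (log2 fold change -0.55 ± 0.15, under the fold criterion).

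Among the 13 not called, Neat1 had a log2 fold change of -0.31 ± 0.04 with an edgeR adjusted p of 3.35e-06, but its fold was small. The value of Malat1, a nuclear speckle RNA, was 0.06 ± 0.04 (adjusted p 0.204), and turned to -0.35 with library size alone. 2900097C17Rik (Norad), which holds Pumilio proteins, was at 0.07 ± 0.03, and 1700020I14Rik (Cyrano), which drives the decay of miR-7, at -0.17 ± 0.04. AW112010, an interferon- and infection-inducible lincRNA, had 629, 605 and 611 counts in Control against 406, 374 and 406 in LPS (log2 fold change -0.17 ± 0.06). Mirt1 was at -0.66 ± 0.23, Lockd at -0.76 ± 0.26 and Mir142hg at -0.87 ± 0.09, and each of the 3 passed the fold criterion with library size alone. Bvht, known from heart development, was at 0.55 ± 0.19 and Epb41l4aos at 0.04 ± 0.09.

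Per length, Gm26917 had a mean of 2547 CPM per kb, Malat1 1863 and Gm42418 305, whereas the median member had 1.12 CPM per kb. Gm26917 and Gm42418 are annotated next to each other on chromosome 17, and Gm42418 shares exonic bases with CT010467.1 and AY036118. Gm26917 held 261514, 307948 and 275771 counts in Control against 351617, 398330 and 338158 in LPS (log2 fold change 0.84 ± 0.07), and Gm42418 had a log2 fold change of 1.19 ± 0.07 that was not called with library size alone (0.78). Both are known to overlap the ribosomal RNA repeat, and how completely ribosomal RNA was removed was not tested.

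As a share of all counts, the members together took 2.23%, 2.55% and 2.52% in Control and 2.33%, 2.47% and 2.28% in LPS. The group means were 2.43% ± 0.18 and 2.36% ± 0.10 (SD, n = 3), and the groups overlapped (difference -0.0743 percentage points, two-sided exact permutation p 0.6). Within this sum Malat1 was at 1.47% ± 0.11 in Control and 1.15% ± 0.01 in LPS, and Gm26917 at 0.701% ± 0.079 and 0.944% ± 0.098. For either gene the exact p was 0.1, the smallest that 3 against 3 libraries allow. All shares here are of raw counts, without the TMM factors of 1.15 in Control and 0.864 to 0.872 in LPS. With TMM the log2 fold change was 0.06 for Malat1 (edgeR adjusted p 0.204) and 0.84 for Gm26917. The lower share of Malat1 therefore depends on the scaling. Without Malat1, Neat1, Gm26917 and Gm42418 the rest took 0.153% ± 0.002 of the counts in Control and 0.150% ± 0.003 in LPS (exact p 0.3), a choice made after seeing the data.

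Of the members, 9 hold a microRNA hairpin on their own strand, 18 hairpins in all. Of these hosts 2 rose, 3 fell and 4 were not called. Over all members 18.9% were called higher and 25.1% lower, and over all tested genes 10.5% and 10.4%. Mature miRNAs were not analysed here. Mir155hg yields miR-155, and Mir17hg the miR-17-92 cluster, a set of growth-promoting microRNAs. Both miR-155 sequences and 1 arm of each microRNA of Mir17hg (RefSeq, GRCm38.p6) are shown for the hosts that rose, with the seed (bases 2 to 8, the part that pairs with targets) in capitals and grouped by shared seed.
mmu-miR-155-5p: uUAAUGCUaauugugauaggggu
mmu-miR-155-3p: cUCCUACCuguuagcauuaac
mmu-miR-17-5p: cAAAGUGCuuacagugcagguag
mmu-miR-20a-5p: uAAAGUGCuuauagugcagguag
mmu-miR-18a-5p: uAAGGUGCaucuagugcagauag
mmu-miR-19a-3p: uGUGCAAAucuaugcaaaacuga
mmu-miR-19b-3p: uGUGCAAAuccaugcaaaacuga
mmu-miR-92a-3p: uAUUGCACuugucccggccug
miR-17-5p and miR-20a-5p share the seed AAAGUGC, which differs from that of miR-18a-5p, and miR-19a-3p and miR-19b-3p share GUGCAAA. Mir17hg held 275, 215 and 241 counts in Control against 675, 618 and 683 in LPS, with a log2 fold change of 1.91 ± 0.08 and an edgeR adjusted p of 2.05e-13. The transcript that carries these seeds was higher in every LPS library than in any Control library.

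The hosts that fell were E130102H24Rik, Ftx and 2900076A07Rik. Some of their mature sequences are shown for comparison, and none of those shown shares a seed with the sequences shown for the rising hosts.
mmu-miR-101a-3p: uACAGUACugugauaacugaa
mmu-miR-101a-5p: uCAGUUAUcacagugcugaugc
mmu-miR-421-5p: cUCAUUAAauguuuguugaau
mmu-miR-374b-5p: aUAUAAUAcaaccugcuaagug
mmu-miR-1839-5p: aAGGUAGAuagaacaggucuug
2900076A07Rik held 254, 238 and 201 counts in Control against 55, 57 and 74 in LPS (log2 fold change -1.43 ± 0.14). The 4 hosts not called included Mir142hg, source of the blood cell microRNA miR-142, with 621, 736 and 711 counts in Control against 288, 269 and 262 in LPS, and 6720427I07Rik, which holds 3 let-7 hairpins, with 1550, 1336 and 1442 counts in Control against 773, 729 and 842 in LPS. In both genes the raw counts did not overlap, but with TMM scaling their log2 fold changes were -0.87 ± 0.09 and -0.41 ± 0.05.
mmu-miR-142a-5p: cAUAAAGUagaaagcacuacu
mmu-miR-142a-3p: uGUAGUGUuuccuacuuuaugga
mmu-let-7d-5p: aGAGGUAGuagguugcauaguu
mmu-let-7f-5p: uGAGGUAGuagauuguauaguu
mmu-let-7a-5p: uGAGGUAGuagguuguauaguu
The let-7 sequences of 6720427I07Rik, shown because they have 1 seed in common, all carry GAGGUAG. 4833445I07Rik, host of miR-191 and miR-425, had a log2 fold change of 0.66 ± 0.11 and Gm37233 of 0.21 ± 0.07.

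**Figure D3:**
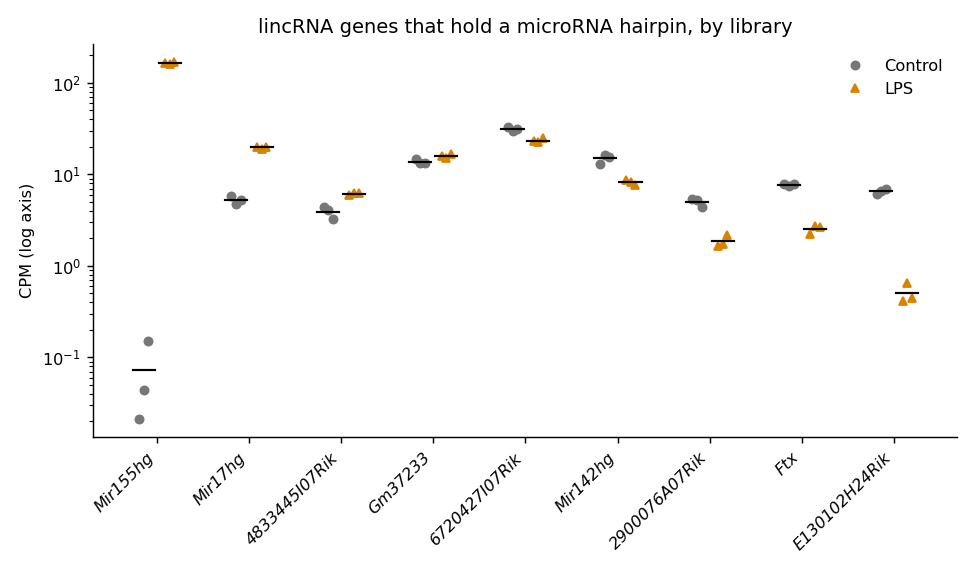
CPM per library on a log axis (circles Control, triangles LPS, bars group means) for the 9 lincRNA genes that hold a microRNA hairpin on their own strand, ordered by log2 fold change. Mir155hg and Mir17hg stand at the rising end and Ftx and E130102H24Rik at the falling end, with the other hosts between.

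The nearest protein-coding gene was tested for 202 members, and for 41 it was not. The 202 pairs involve 188 coding genes. Both genes were called in 30 pairs, in the same direction in 27 and in opposite directions in 3. Of 38 rising members with a tested neighbour, 19 had a rising neighbour, 1 a falling neighbour and 18 a neighbour that was not called. Of 50 falling members, 8 had a falling and 2 a rising neighbour, and 40 had a neighbour that was not called. In other words a rise was shared in 50% of pairs and a fall in 16%. For the 20 members under 60 Control counts, the count minimum fixed the direction of the raw counts, though not the call. All 20 were called higher. The shares over all genes, which follow, are therefore not like for like. Over all 11944 gene and nearest coding gene pairs, the corresponding shares were 28.4% for rising genes and 17.4% for falling genes, and 88.4% of pairs with both genes called went the same way, beside 90% for the members. Across the 202 pairs the log2 fold changes of lincRNA and neighbour had a Spearman correlation of 0.43, as a description of pairs from the same 6 libraries.

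**Figure D4:**
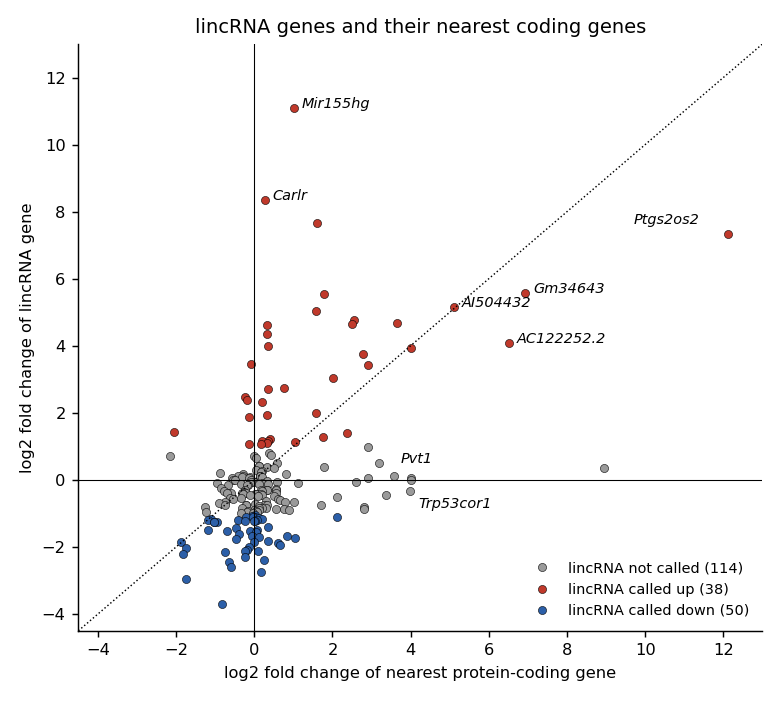
Each point is a lincRNA gene with a tested nearest coding gene, with the log2 fold change of that gene (horizontal) against its own (vertical) and a dotted line of equal change. Many of the 50 falling lincRNAs lie near 0 on the horizontal axis, and Trp53cor1 and Pvt1 lie far to the right of the vertical axis while not called themselves.

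AI504432 and Kcna3, 1433 bases apart on the same strand, moved together, with 77, 87 and 56 counts of Kcna3 in Control and 1794, 1907 and 1782 in LPS. The log2 ratio of lincRNA to neighbour changed by 0.05 ± 0.20 between the groups (limma adjusted p 0.832). Gm14963 and the endocytosis gene Ehd1, 119 bases apart, rose by 4.68 ± 0.37 and 3.64 ± 0.04 on the log2 scale (ratio 0.45 ± 0.28, limma adjusted p 0.18). Ratios here add a prior count of 2 to both genes. As Gm14963 held few Control counts, its ratio lies below the difference between the fold changes. The rise of Gm14963, which held 1, 5 and 2 Control counts, was 5.47 without Control replicate 2. Gm48065 and Prdm1, the gene of the transcription repressor Blimp-1, rose by 3.94 ± 0.10 and 4.01 ± 0.04 on the log2 scale over a gap of 69387 bases. Gm48065 shares 553 exonic bases with Gm35154, so reads there could be split between them. Gm48066 and Gm35154, which also have Prdm1 as nearest coding gene, were at 0.01 ± 0.27 and 0.07 ± 0.13. These 3 Prdm1 neighbours were named after their values were seen.

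Other lincRNAs had smaller rises than the gene next to them. Ptgs2 went from 53, 36 and 30 counts to 129810, 116896 and 135151, so that the log2 ratio of Ptgs2os2 to it fell by 5.15 ± 0.23 (limma adjusted p 4e-08). Acod1 rose by 6.94 on the log2 scale, beside 5.58 for Gm34643 (ratio -1.72 ± 0.15, limma adjusted p 5.78e-06). With the prior count of 2, this ratio lies below the difference between the fold changes, as Gm34643 held few Control counts. Dusp1 rose by 6.51, beside 4.08 for AC122252.2 (ratio -2.48 ± 0.37). 4933433G15Rik, 178 bases from the kinase gene Mapk6, rose by 1.39 ± 0.19, beside 2.36 for Mapk6, but the ratio of -0.98 ± 0.16 was under the fold criterion, and its own rise was not called with library size alone (0.99). In each pair both genes were higher in every LPS library.

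Carlr, Mir155hg, AC124231.3 and Gm20186 rose beside neighbours with much smaller changes, though those of Mrpl39 and Tshz1 were above the fold criterion of 1. Pip4k2a, next to Carlr, was at 0.28, Mrpl39, next to Mir155hg, at 1.01, Tshz1, next to AC124231.3, at 1.60, and Lsm8, next to Gm20186, at 0.33 on the log2 scale. 2010110E17Rik, divergent from N4bp1 at a gap of 429 bases, held 3, 1 and 2 counts in Control against 65, 79 and 74 in LPS (log2 fold change 5.56 ± 0.32), beside 1.78 for N4bp1.

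The reverse was also seen, with coding genes that rose beside lincRNAs that did not. Cdkn1a, the cell cycle inhibitor p21, held 894, 1030 and 1065 counts in Control against 11550, 11169 and 11475 in LPS. Trp53cor1 (lincRNA-p21), 11796 bases from it, held 107, 97 and 91 counts in Control against 52, 65 and 52 in LPS, a log2 fold change of -0.33 ± 0.15 (edgeR adjusted p 0.0663). The log2 ratio of the pair fell by 4.30 ± 0.16 (limma adjusted p 7.81e-09). Pvt1 was at 0.12 ± 0.14 beside Myc, which rose by 3.58 ± 0.06, and the value of Pvt1 turned to -0.29 with library size alone. Gm11110, named after its values were seen, overlaps Tnfsf9 on the other strand over 192 exonic bases. It held 106, 109 and 92 counts in Control against 100, 93 and 92 in LPS, while Tnfsf9, a TNF family ligand, went from 123, 110 and 108 to 41978, 38681 and 41046 counts.

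The 3 pairs that moved in opposite directions were Gm27194 with Zfp286, Gm20703 with Tgif1 and Gm9530 with Ier5. Gm20703 held 155, 167 and 154 counts in Control against 56, 39 and 65 in LPS (log2 fold change -1.10 ± 0.15), while Tgif1 rose by 2.12. The call of Gm20703 was lost without LPS replicate 2 (-0.94), and the count of opposite pairs was then 1. Gm9530 fell by 1.72 ± 0.31 on the log2 scale beside Ier5, an immediate early gene that rose by 1.05. Gm27194 rose by 1.44 ± 0.28 and Zfp286 fell by 2.05, but the 2 genes share 1428 exonic bases on opposite strands, and the strand setting of the counting was not given in the sources used here.

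Among falling pairs, the zinc finger gene Zfp825 on chromosome 13 had 2 falling lincRNAs as neighbours. Its log2 fold change was -1.75, beside -2.02 for E430024I08Rik and -2.96 for Gm47469, and the ratio of E430024I08Rik to it changed by -0.25 ± 0.25 (limma adjusted p 0.4), whereas that of Gm47469 fell by 1.13 ± 0.34 (limma adjusted p 0.0159). Gm48604 fell by 1.85 ± 0.25 on the log2 scale and Hinfp, a histone gene regulator that it overlaps on the same strand, by 1.86. Gm5113 fell by 1.27 ± 0.13 and Zfp146, 124 bases away, by 1.03. The remaining large falls were seen beside genes that changed by less than 1 on the log2 scale, such as Slc25a36 (-0.65) beside Gm19325 and Cp (-0.20) beside 4632415L05Rik.

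**Figure D5:**
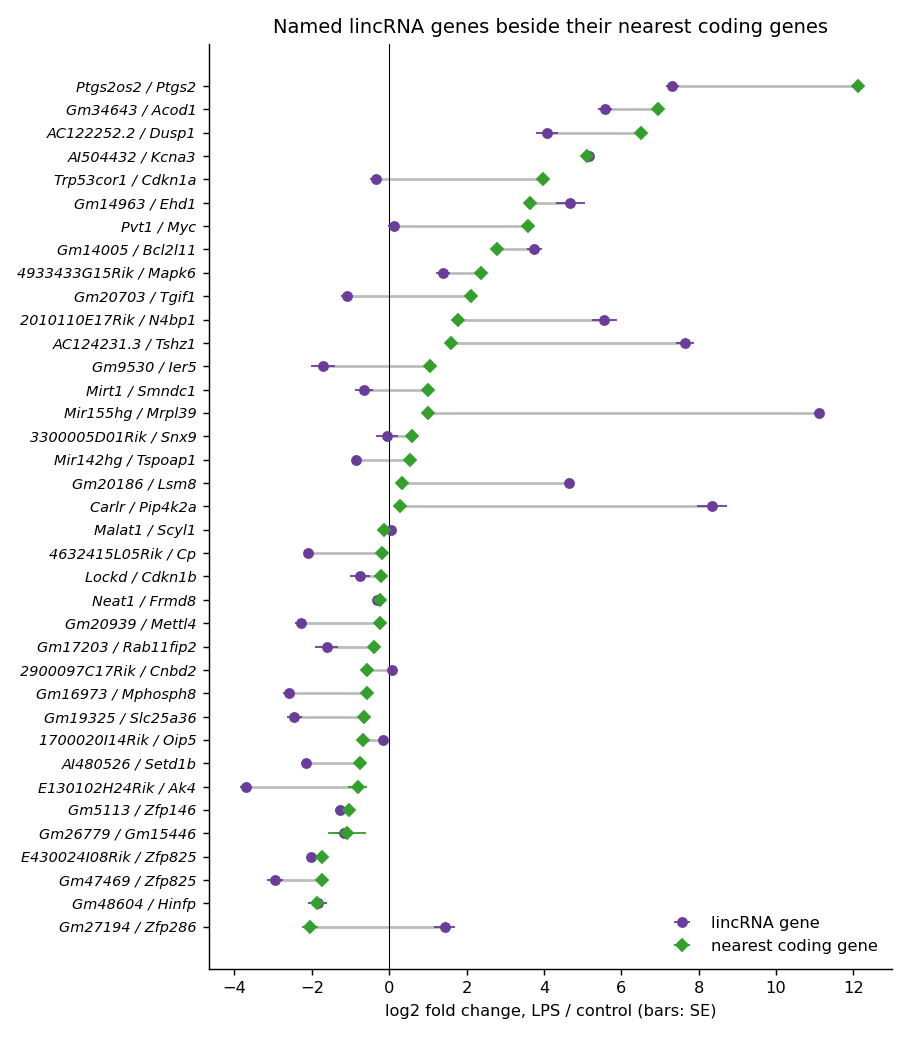
For 37 named lincRNA genes (circles) and their nearest coding genes (diamonds) the log2 fold change of LPS against Control is shown with its standard error, ordered by the coding gene. Circles lie to the right of the diamonds in 13 pairs, such as Mir155hg and Carlr, and far to the left in Trp53cor1, Pvt1 and Ptgs2os2.

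The ratio of lincRNA to neighbour was tested with limma in all 11944 pairs, of which 12.4% had a higher and 14.3% a lower ratio in LPS at the same criteria. Of the 202 member pairs, 22 (10.9%) had a higher and 63 (31.2%) a lower ratio, with a median of -0.47 beside -0.01 for all pairs. Of the 63 lower ratios, 33 belonged to falling members, 27 to members that were not called themselves and 3 to rising members. Of the 19 pairs in which both genes rose, the lincRNA rose more than its neighbour in 6, less in 3, and in 10 the ratio was not called.

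By position, 71 members were divergent from their nearest coding gene (10 rose and 19 fell) and 37 convergent (9 and 7). Another 63 lay downstream on the same strand (13 and 17), 45 upstream on the same strand (11 and 8) and 27 overlapped that gene (3 and 10). Of all members, 18.9% were called higher and 25.1% lower, beside 10.5% and 10.4% of all tested genes. Of the rising members with a tested neighbour, 5 of 10 divergent, 4 of 8 convergent, 6 of 11 downstream, 4 of 6 upstream and 0 of 3 overlapping ones had a neighbour that rose, beside 28.4% over all tested genes that rose. Of the falling members, 2 of 17 divergent, 0 of 4 convergent, 3 of 15 downstream and 2 of 8 upstream ones had a neighbour that fell. Of those that overlapped the neighbour, it was 0 of 5 on the other strand and 1 of 1 on the same strand. Over all tested genes that fell it was 17.4%, and no difference between positions was tested.

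Genes of proteins that bind or degrade nuclear RNA were counted from 2 lists, beside the 10.5% higher and 10.4% lower calls over all tested genes. Of 12 paraspeckle protein genes, 1 rose (Hnrnph3, log2 fold change 1.25 ± 0.09), none fell, and the median was 0.25. Sfpq, which builds paraspeckles around Neat1, was at 0.62 ± 0.04 and Nono at -0.01 ± 0.03. Of 21 genes of nuclear RNA decay, 1 rose and 1 fell, with a median of -0.09. The rise was that of Rbm7 (1.15 ± 0.04), which guides the nuclear exosome to its targets, and the fall that of the exosome core gene Exosc4 (-1.11 ± 0.08). With library size alone neither Hnrnph3 nor Rbm7 was called. At an edgeR adjusted p under 0.05 without the fold criterion, 9 paraspeckle genes were higher and 0 lower, and 5 decay genes were higher and 10 lower, as 10626 of all 15687 tested genes passed that limit. Zcchc8 was at -0.52 ± 0.05 and Exosc7 at -0.64 ± 0.08, whereas Mtrex, the exosome helicase, was at 0.27 ± 0.04 and the exosome nuclease gene Exosc10 at 0.29 ± 0.04.

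The members just inside the minimum were Gm17203, with 32, 31 and 36 counts in Control against 6, 9 and 8 in LPS, and 3300005D01Rik, with 22, 24 and 28 counts in Control against 22, 15 and 14 in LPS. Just outside it lay A430106G13Rik, with 29, 33 and 41 counts in Control against 1, 9 and 5 in LPS, and Gm41442, with 10, 16 and 27 counts in Control against 24, 19 and 22 in LPS. Of these 4 genes, Gm17203 and A430106G13Rik were called lower.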

How the data were processed

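Total RNA of 3 Control and 3 LPS libraries was prepared with a stranded total RNA kit and sequenced as paired-end reads. Per the labels' processing notes and the paper's methods, the authors aligned reads to GRCm38 with HISAT2 2.1.0, used SAMtools 1.17 and counted reads per gene with featureCounts 2.0.0. They deposited counts without normalization. The annotation release, strand setting and handling of multi-mapping reads were not given in the sources used here, so genes that overlap or repeat others are uncertain. Of 55335 rows, 55154 matched GENCODE M21 without version and 181 did not.

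From the counts, LPS was compared with Control in R 4.3.3 by edgeR 4.0.16 (filterByExpr, TMM, quasi-likelihood test, Benjamini-Hochberg adjustment over 15687 genes, adjusted p under 0.05 and absolute log2 fold change above 1). Ratios to the nearest coding gene, taken by the smallest gap in GENCODE M21, were tested with limma 3.58.1 after adding a prior count of 2 to both genes. The SE of an edgeR log2 fold change is its absolute value divided by the square root of the F statistic. Where 1 group held few counts, this SE can be too small. Shares of counts were compared by an exact permutation test. The scripts were tested on simulated data. Intervals and floors cover counting error only, since reads carry no molecular identifiers.

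Named genes were the 8 largest rises and 8 largest falls that averaged 50 or more counts per library and moved alike in all pairs of libraries with the same number, well-known lincRNAs, the 6 highest per length, those nearest the count minimum, the 5 called pairs with the smallest gap in the same direction and all 3 in opposite directions, and the called genes of the 2 lists. Exceptions are stated where they occur. The limit of 1000 bases on promoter windows was set after seeing the data. The members and lists were chosen with earlier results of these data known.

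Libraries carry the same replicate numbers in both groups, and the numbers were taken as batches. Whether same-numbered libraries share a mouse, culture or day was not known. Same-numbered deviations from the group means correlated by -0.01 to 0.08. The fit had no term for the replicate number, and a blocked fit was run beside it. Scaling was also done by DESeq2's size factors, by library size alone and by upper quartiles. Further alternatives were other filters, DESeq2 1.42.0, limma voom, removing the 10 most abundant genes, removing single libraries, other count minimums, gaps and definitions of the nearest gene, and a prior count of 0.5.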

Additional observations from a re-analysis of the deposited data

How the results depend on the processing

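The calls of the members were the same 46 higher and 61 lower with DESeq2's size factors and DESeq2's test. The fit with a replicate block gave the same 46 and 61 calls, and it changed no call of a member. With library size alone 98 members were lower, 35 of the 46 rises and all 61 falls were kept, 5 pairs were opposite, no paraspeckle gene and 0 decay genes rose, and 2 decay genes fell. Of all calls of all genes 29.1% were then higher, beside 50.4% with TMM. With at least 10 counts in every library 30 members were higher and 15 pairs alike, since 34 members were not tested. A minimum total of 240 counts left 166 lincRNA genes, of which 33 were higher and 36 lower. A minimum of 60 Control counts, in place of the total, took in 252 lincRNA genes, of which 26 were higher and 78 lower. Over all tested genes 10.5% were called higher and 10.4% lower. A gap of at most 10 kb left 116 pairs, with 14 alike and 2 opposite. Members overlapping no other gene left 128 pairs, with 15 alike and 2 opposite. Leaving out each library gave 44 to 47 higher and 61 to 65 lower members, 24 to 27 pairs alike, 1 to 4 opposite, 22 to 24 higher and 62 to 68 lower ratios, and share differences of -0.176 to -0.0162 percentage points. The difference in share was 0.24 without Malat1, 0.269 without Malat1 and Neat1, and -0.346 without Gm26917 and Gm42418, the last chosen after seeing the data.

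Of the log2 fold changes of named genes, 656 values kept direction and call, 4 gained and 4 lost the call, and 14, all of genes not called, reversed. With library size alone and upper quartile scaling Malat1 was -0.348 and -0.086, 2900097C17Rik -0.335 and -0.073, Pvt1 -0.286 and -0.025, and Epb41l4aos -0.364 and -0.102. Without 1 library, Malat1 ranged from -0.001 to 0.104, Epb41l4aos from -0.013 to 0.087 with -0.002 between, and 3300005D01Rik from -0.293 to 0.064 with 0.036 and 0.000 between. The cause was not tested. Depth limits the members under 240 counts most.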

Other observations

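Below the minimum of 120 counts, another 116 lincRNA genes passed the filter on low counts. Of these, 34 (29.3%) were higher and 38 (32.8%) lower in LPS, beside 10.5% and 10.4% of all tested genes. Gm32296, 52324 bases downstream of the immediate early gene Fos, was at 0 in each Control library and at 39, 27 and 36 counts with LPS, while Fos rose by 2.40 on the log2 scale. Mm2pr, which overlaps the span of the chromatin protein gene Hmgb1, held 13, 18 and 23 counts in Control against 1, 0 and 2 in LPS. Gm47467, a further lincRNA beside Zfp825, held 36, 32 and 34 counts in Control against 8, 2 and 0 in LPS. Of the 4 snoRNA host genes left out of the members, none was called higher and 2 were called lower by edgeR. These genes were named after their values were seen, and many of them passed the filter through the group in which they were high.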
